A study of Mus musculus with 12 samples.

Results

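Immediate early genes are transcribed within minutes of a growth factor, cytokine or stress signal, without the need for new protein. The set described here held 10 genes of this kind or of the same families: Jun, Junb, Jund, Fos, Fosb, Fosl2, Egr1, Ier2, Ier3 and Myc. They were followed in whole liver of mice aged 2 weeks, with Mdr2 intact or knocked out and with the Stat3 allele floxed or deleted. Jun and Myc rose most with loss of Mdr2: Jun by 3.37-fold in floxed liver and by 1.9-fold in Stat3Δhc liver, and Myc by 1.93-fold and 2.07-fold. Jund and Fosb rose by smaller factors in both backgrounds, whereas Fos, Fosl2, Ier2 and Ier3 passed the test in neither. Skeletal muscle signal was lower in every array without Mdr2 than in every array with it. The share of muscle RNA and Mdr2 loss can therefore not be told apart. On the Mdr2 knockout, Jun was the single member of the 10 that passed the test with Stat3 deletion, at 1.81-fold lower. Xist and Y-linked signal also differed between these genotypes. In a fit with that pattern as a covariate, this difference of Jun did not pass. Nor did the floxed rises of Jund and Myc or either rise of Fosb, while the floxed rise of Jun did.

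Each gene was taken by a transcript cluster annotated to that gene alone, and by the cluster of highest mean where there were several. All 10 had exactly 1 such cluster, among 19938 genes with one, and all 10 were among the 13977 genes bright enough to test. Ier3 was the dimmest by this filter, lying above the array's 40th percentile in 8 arrays, while each of the other 9 did so in all 12. The 12 arrays comprised 4 genotypes with 3 arrays each, lettered A to C. Stat3Fl/Fl mice carried the floxed Stat3 allele and intact Mdr2. Stat3Δhc mice carried the deleted Stat3 allele and intact Mdr2. The other two genotypes, Stat3Fl/Fl Mdr2-/- and Stat3Δhc Mdr2-/-, combined each of these with the Mdr2 knockout. Floxed Stat3 is thus the control state throughout, and a wild-type Stat3 group was not analysed here. The labels name neither the Cre transgene that deletes Stat3 nor the cell type in which it acts. They also do not say whether arrays of a genotype came from separate animals, so p-values measure the spread between these arrays, which may be technical. The arrays were made to find pathways behind cholestasis and bile acid injury in Stat3Δhc Mdr2-/- mice.

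Members of the Jun and Fos families pair with each other to form the AP-1 transcription factor, with Jun proteins able to pair among themselves and Fos proteins only with partners. Egr1 encodes a zinc finger transcription factor, and Ier2 and Ier3 encode small proteins of the early response, Ier3 being linked to cell survival. Myc encodes a transcription factor that pairs with Max and drives growth and ribosome assembly. In rodent liver these genes are known for their rapid rise after partial hepatectomy, and Jun is needed in hepatocytes for normal regeneration. Mdr2, encoded by Abcb4, moves phospholipid into bile, and its loss exposes the bile ducts to bile acids without that protection. Stat3 is the transcription factor through which interleukin 6 induces Junb, Fos and Myc in several cell types.

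Promoter sequence was available for 7 of the 10 genes, each as the 250 bases before the start of transcription in RefSeq, on GRCm38.p6. The windows of Jun, Fos and Fosb are printed here 5′ to 3′ on the strand of the gene, because Jun carried the largest response and Fos, its partner in AP-1, did not pass the test, while Fosb did. Capitals mark matches to the motifs searched, except the GC box GGGCGG, which is left in lower case where it overlaps no other match.
Jun (chr4:95052223-95052472, minus strand): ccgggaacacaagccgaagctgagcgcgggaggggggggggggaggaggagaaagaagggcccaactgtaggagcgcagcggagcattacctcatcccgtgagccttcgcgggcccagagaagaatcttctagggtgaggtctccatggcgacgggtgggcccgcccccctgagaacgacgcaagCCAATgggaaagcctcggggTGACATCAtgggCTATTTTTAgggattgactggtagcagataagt
Fos (chr12:85473640-85473889, plus strand): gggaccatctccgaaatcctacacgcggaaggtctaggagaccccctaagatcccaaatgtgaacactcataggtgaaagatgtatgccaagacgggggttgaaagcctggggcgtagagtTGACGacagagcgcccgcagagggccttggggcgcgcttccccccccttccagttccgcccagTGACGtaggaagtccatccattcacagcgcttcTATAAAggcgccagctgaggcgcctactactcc
Fosb (chr7:19310046-19310295, minus strand): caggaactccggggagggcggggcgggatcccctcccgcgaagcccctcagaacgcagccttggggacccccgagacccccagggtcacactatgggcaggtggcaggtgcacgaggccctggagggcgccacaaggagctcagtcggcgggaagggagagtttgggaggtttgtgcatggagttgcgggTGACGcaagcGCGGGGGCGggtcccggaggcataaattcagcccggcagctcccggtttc

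The Jun window held TGACATCA, a form of the AP-1 and ATF element, at bases -45 to -38 from the start. It also held CTATTTTTA, an element of the MEF2 type, at bases -33 to -25, and CCAAT at -65 to -61. On either strand, TGACATCA lay in 2.93% of the 32851 windows of the table, CTATTTTTA in 0.454% and CCAAT in 33.8%. The Fos window held TGACG, the core of the cyclic AMP element, at -129 to -125 and at -66 to -62, with TATAAA at -33 to -28. The Fosb window held TGACG at -60 to -56 and GCGGGGGCG, a site of the Egr type, at -50 to -42. TGACG lay in 17.8% of all windows, TATAAA in 12.4% and GCGGGGGCG in 2.57%. The STAT element TTCNNNGAA, present in 7.02% of windows, and the CArG box, bound by serum response factor and present in 1.47%, had no match in any of the 7 windows. Neither did TGACGTCA, TGACTCA or CACGTG, present in 1.55%, 4.46% and 6.02% of windows. TGACATCA and CTATTTTTA were added after the Jun window had been read. The GC box, present in 32.7% of windows, matched in all 3 printed windows, at -89 to -84 for Jun, at -74 to -69 for Fos, and for Fosb at -235 to -230, -230 to -225 and -46 to -41, the last overlapping GCGGGGGCG. Of the windows not printed, Fosl2 held GCGGGGGCG, overlapped by a GC box at -75 to -70, and Junb held TGACG and CCAAT. Ier3 held CCAAT at 2 places and a GC box at -96 to -91. A match describes letters in these windows only and does not show that a factor binds there. Sequence farther upstream was not searched, so a missing match does not show that a gene lacks the element.

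Hepatocyte genes were bright in all arrays, with a mean log2 signal of 12.21 to 12.72 over 10 genes. The Stat3 signal was 9.19 to 9.54 with the floxed allele and 7.69 to 8.12 with the deleted one. For Abcb4 it was 10 to 10.28 where Mdr2 was intact and 8.87 to 9.36 where it was knocked out. Whether probes for these genes fall inside the deletions is not given. The source name field swaps the genotypes of the Mdr2-/- arrays against title, description and genotype, and the Stat3 signal followed the title. Array-wide medians ranged from 6.01 to 6.14, and arrays of a genotype correlated at 0.98 to 0.991. The libraries also differed in transcripts of another tissue and of sex. Averaged over 12 skeletal muscle genes, the signal was 8.64 to 9.48 in the 6 intact arrays and 5.36 to 5.76 in the 6 knockout arrays. Exocrine pancreas genes averaged 5.69 to 10.09 and 5.36 to 5.68 in the same sets. Xist was high and Y-linked genes low in the 3 Stat3Fl/Fl Mdr2-/- arrays and in array A of Stat3Δhc Mdr2-/-, and the other 8 arrays showed the opposite pattern.

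**Figure D1:**
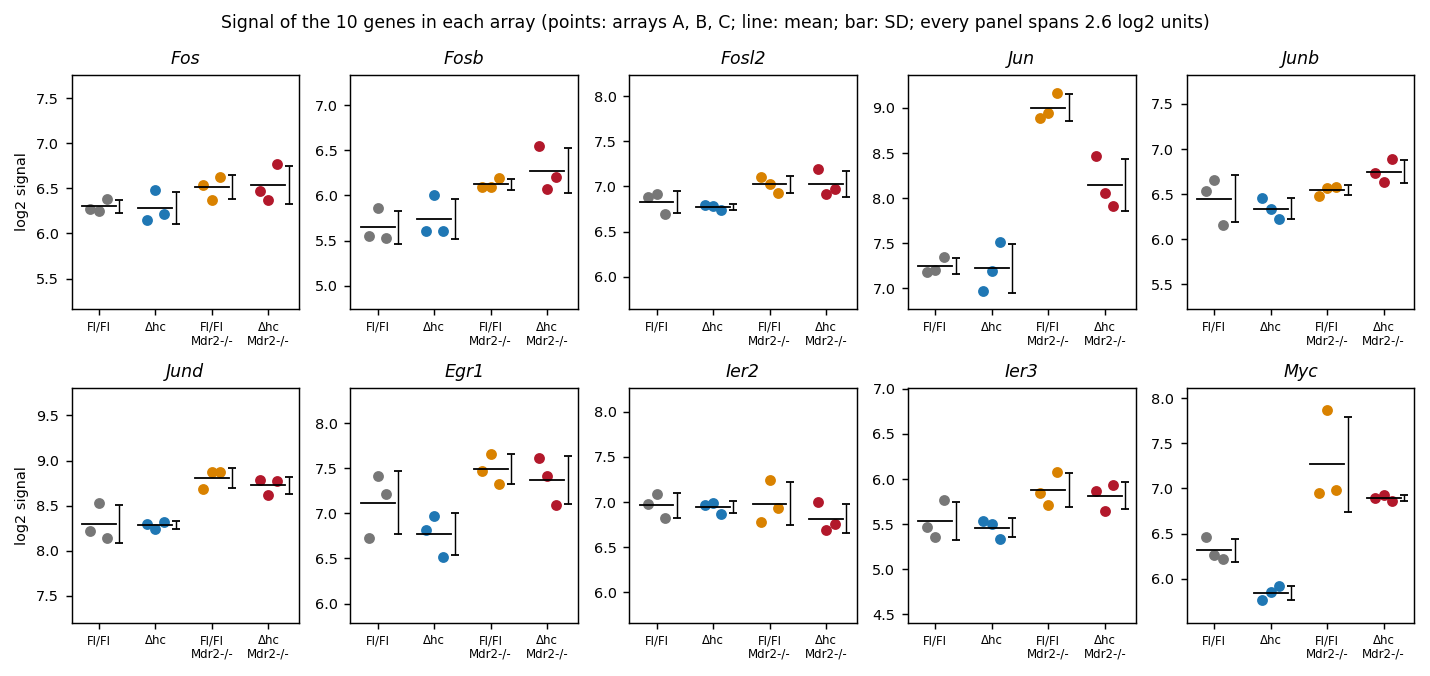
Log2 signal of each of the 10 genes (vertical axis) in the 4 genotypes (horizontal axis), with each array as a point, the mean as a line and the SD as a bar, and panels of equal height in log2 units. The Jun panel shows 2 separate levels for the Mdr2-/- genotypes, at means of 9.0 and 8.15, above both genotypes with intact Mdr2 at 7.25 and 7.22.

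Jun encodes the founding member of the AP-1 family, whose own promoter is among its targets. In Stat3Fl/Fl liver its log2 signal was 7.18, 7.21 and 7.35 in arrays A, B and C, and in Stat3Fl/Fl Mdr2-/- liver 8.89, 8.94 and 9.17. In Stat3Δhc liver it was 6.97, 7.19 and 7.51, and in Stat3Δhc Mdr2-/- liver 8.47, 8.06 and 7.91. Each array without Mdr2 lay above each array with it, and the floxed knockout arrays lay above the Stat3Δhc knockout arrays. Jun rose by 1.75 on the log2 scale with Mdr2 loss in floxed liver (SE 0.15, 3.37-fold, limma adjusted p = 1.56e-05), the 17th largest rise of all genes tested. In Stat3Δhc liver it rose by 0.92 (SE 0.15, 1.9-fold, limma adjusted p = 0.00187), ranked 119. Whole tissue was measured, so more cells of a type with high Jun and more Jun RNA per cell cannot be told apart.

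Jund, the Jun family member with the steadiest basal expression in many cells, moved less. It was 8.22, 8.53 and 8.14 in Stat3Fl/Fl liver and 8.68, 8.87 and 8.87 in Stat3Fl/Fl Mdr2-/- liver. It was 8.3, 8.24 and 8.32 in Stat3Δhc liver and 8.78, 8.62 and 8.77 in Stat3Δhc Mdr2-/- liver. The groups did not overlap in either background, and the intact groups had the same mean of 8.29. Jund rose by 0.51 (SE 0.1, 1.43-fold, limma adjusted p = 0.00669) and by 0.43 (SE 0.1, 1.35-fold, limma adjusted p = 0.0141).

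Junb, often an antagonist of Jun in growth control, was 6.53, 6.66 and 6.16 in Stat3Fl/Fl liver and 6.48, 6.57 and 6.58 in Stat3Fl/Fl Mdr2-/- liver. These groups overlapped (log2 change 0.09, SE 0.12, limma adjusted p = 0.676). In Stat3Δhc liver it was 6.46, 6.33 and 6.23, all below the 6.73, 6.63 and 6.89 of Stat3Δhc Mdr2-/- liver, a rise of 0.41 (SE 0.12, 1.33-fold, limma adjusted p = 0.0357). That call held in 7 of the 12 fits that left out 1 array, with adjusted p up to 0.136. The Mdr2 effect on Junb was 0.32 larger in Stat3Δhc liver (SE 0.17, limma adjusted p = 0.345), which did not pass.

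Among the Fos family, which encodes the partners of Jun, Fosb was the member that passed. It was 5.55, 5.86 and 5.53 in Stat3Fl/Fl liver and 6.09, 6.09 and 6.19 in Stat3Fl/Fl Mdr2-/- liver. In Stat3Δhc liver it was 5.61, 6 and 5.61, and in Stat3Δhc Mdr2-/- liver 6.55, 6.07 and 6.2. Array B was the highest of both intact groups, yet the knockout groups lay above it in each background. Fosb rose by 0.48 (SE 0.14, 1.39-fold, limma adjusted p = 0.0428) and by 0.53 (SE 0.14, 1.45-fold, limma adjusted p = 0.0223). These calls held in 6 and 9 of the 12 fits without 1 array, with adjusted p up to 0.143 and 0.0941.

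Fos, the classic immediate early gene, was 6.27, 6.25 and 6.38 in Stat3Fl/Fl liver, 6.54, 6.37 and 6.63 in Stat3Fl/Fl Mdr2-/- liver, 6.15, 6.48 and 6.21 in Stat3Δhc liver and 6.47, 6.37 and 6.77 in Stat3Δhc Mdr2-/- liver. The groups overlapped in both backgrounds, with log2 changes of 0.21 (95% interval -0.05 to 0.47, limma adjusted p = 0.291) and 0.26 (0 to 0.51, limma adjusted p = 0.144). Its interval therefore reached at most about the size of the Jund change. Fosl2, a later and more stable family member, spanned 6.69 to 6.92 and 6.74 to 6.8 in the genotypes with Mdr2, and 6.93 to 7.11 and 6.92 to 7.19 in those without. Its groups did not overlap in either background, but the changes of 0.2 and 0.25 gave limma adjusted p of 0.211 and 0.0822.

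Egr1 varied widely within genotypes. It was 6.73, 7.41 and 7.21 in Stat3Fl/Fl liver and 7.47, 7.66 and 7.33 in Stat3Fl/Fl Mdr2-/- liver, which overlapped (log2 change 0.37, SE 0.18, limma adjusted p = 0.218). In Stat3Δhc liver it was 6.82, 6.97 and 6.52, below the 7.61, 7.41 and 7.09 of Stat3Δhc Mdr2-/- liver. This rise of 0.6 (SE 0.18, 1.51-fold, limma adjusted p = 0.0388) held in 7 of the 12 fits without 1 array, with adjusted p up to 0.16. Ier3 had log2 changes of 0.35 (limma adjusted p = 0.0956) and 0.36 (limma adjusted p = 0.0705) in the 2 backgrounds. Its signal spanned 5.36 to 5.77 and 5.34 to 5.54 with Mdr2, and 5.71 to 6.08 and 5.65 to 5.93 without. Ier2 had changes of 0.02 and -0.13 (limma adjusted p = 0.925 and 0.475), with all 12 arrays between 6.69 and 7.24.

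Myc was 6.46, 6.26 and 6.22 in Stat3Fl/Fl liver and 6.95, 7.87 and 6.98 in Stat3Fl/Fl Mdr2-/- liver. In Stat3Δhc liver it was 5.76, 5.85 and 5.92, and in Stat3Δhc Mdr2-/- liver 6.89, 6.93 and 6.86. Array B of Stat3Fl/Fl Mdr2-/- stood well above the other 11, and the 6 knockout arrays all lay above the 6 intact ones. Myc rose by 0.95 in floxed liver (SE 0.19, 1.93-fold, limma adjusted p = 0.00561) and by 1.05 in Stat3Δhc liver (SE 0.19, 2.07-fold, limma adjusted p = 0.00267). Without the high array B the rise in floxed liver was 0.65 (SE 0.1, limma adjusted p = 0.00162).

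**Figure D2:**
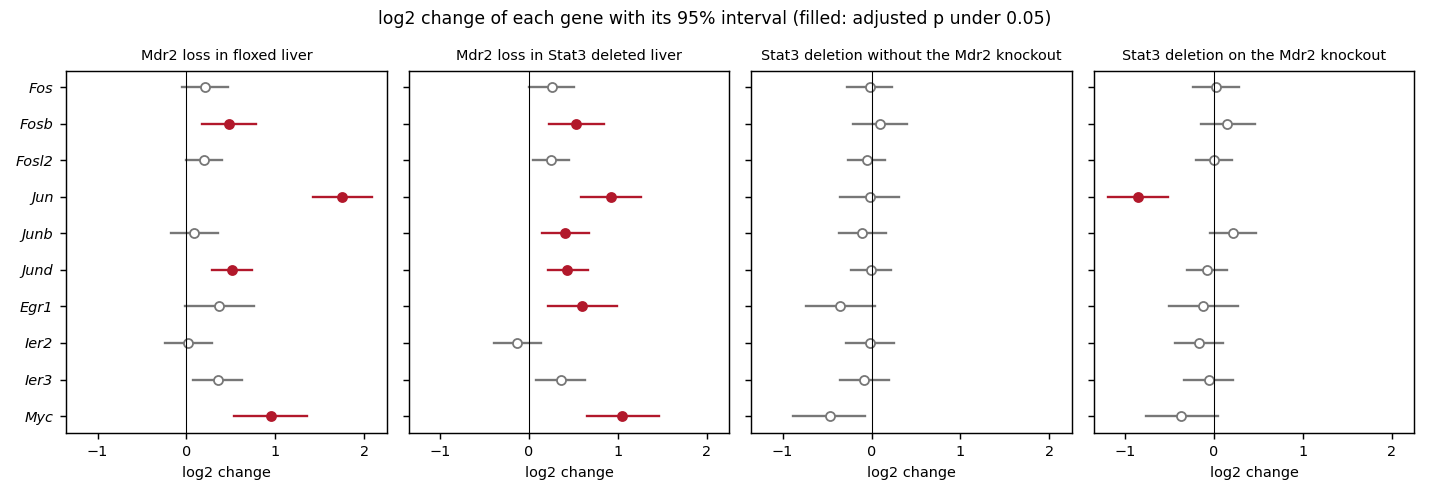
Log2 change of each of the 10 genes (horizontal axis) with its 95% interval in the 2 comparisons of Mdr2 and the 2 of Stat3, filled where the adjusted p is under 0.05. Jun at 1.75 and 0.92 and Myc at 0.95 and 1.05 lie farthest right under Mdr2 loss, and Jun at -0.86 is the one filled point under Stat3 deletion.

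The 10 genes were chosen with earlier results of these data known, so the counts here only describe these arrays. With Mdr2 loss in floxed liver, 4 of the 10 genes were higher and 0 lower at an adjusted p under 0.05. Of all 13977 genes tested, 12.8% were called, 7.12% higher and 5.65% lower. The 10 genes had a median log2 change of 0.36, against 0 over all genes tested. Non-overlapping higher values were seen for 5 of the 10, against 18.2% of all genes. In Stat3Δhc liver, 6 of the 10 were higher and 0 lower, against 17.4% called among all genes, 6.9% higher and 10.5% lower. Their median was 0.42, against -0.02, and 8 of the 10 had non-overlapping higher values, against 14.9% of all genes. The 2 comparisons share no arrays, but both come from the same fit with a shared estimate of spread for each gene. They also share the gap in skeletal muscle signal given above, so their calls are not independent. The 4 genes called in floxed liver, Fosb, Jun, Jund and Myc, were also called in Stat3Δhc liver, where they made up 66.7% of the 6 called, while over all genes the shared higher calls were 40.5% of the floxed and 41.8% of the Stat3Δhc calls.

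Skeletal muscle genes fell in both comparisons, 12 of 12 in each, with median log2 changes of -3.59 and -3.2. Their level separated the same arrays as the Mdr2 genotype did, so the share of muscle RNA and Mdr2 loss cannot be told apart in these values. Within the 6 arrays with Mdr2, the muscle mean ran from 8.64 to 9.48 and Jun from 6.97 to 7.51. That muscle range is narrow beside the gap between both sets of arrays, and the relation of Jun to muscle RNA was not tested. The Xist or Y-linked pattern separated the same floxed arrays as Mdr2 loss did, so floxed liver alone cannot tell them apart. Only Stat3Δhc Mdr2-/- liver held both patterns. A fit of the pattern therefore rests on its array A against its arrays B and C. With the pattern as a covariate, the floxed rise of Jun was 1.27 (SE 0.24, limma adjusted p = 0.03), that of Jund 0.43 (0.44), that of Myc 0.95 (0.329) and that of Fosb 0.06 (0.942), each with its adjusted p in parentheses. In Stat3Δhc liver the 5 arrays of the Y-linked pattern gave rises of 0.76 for Jun (SE 0.15, limma adjusted p = 0.0107), 1.05 for Myc (SE 0.1, limma adjusted p = 0.000308) and 0.41 for Jund (SE 0.12, limma adjusted p = 0.0488). Fosb, Junb and Egr1 did not pass there, at 0.4, 0.42 and 0.48 (limma adjusted p = 0.0879, 0.0815 and 0.118).

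**Figure D3:**
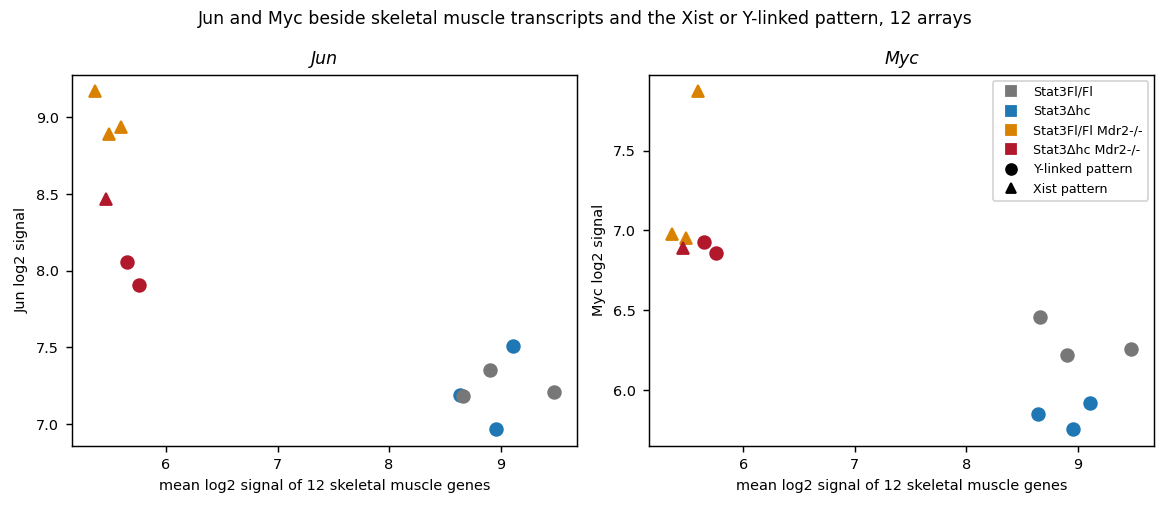
Log2 signal of Jun and of Myc (vertical axes) against the mean log2 signal of 12 skeletal muscle genes (horizontal axis), 1 point per array, with colour for the genotype and shape for the Xist or Y-linked pattern. The 6 arrays without Mdr2 lie at muscle means of 5.36 to 5.76 and the 6 with Mdr2 at 8.64 to 9.48, and array A of Stat3Δhc Mdr2-/-, with the Xist pattern, has Jun at 8.47 between both sets of knockout arrays.

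Stat3 deletion on the Mdr2 knockout is the comparison that the stated purpose of the arrays centres on. Jun fell by 0.86 on the log2 scale, from a mean of 9.0 to 8.15 (SE 0.15, 1.81-fold, limma adjusted p = 0.00903), the 89th largest fall of the genes tested. It was the 1 call among the 10, against 5.77% of all genes, 1.87% higher and 3.9% lower. The call held in each of the 12 fits that left out 1 array, with changes between -1.02 and -0.74 and adjusted p between 0.00428 and 0.0398. Fitted beside the Xist or Y-linked pattern, the change was -0.53 (SE 0.18) and did not pass (limma adjusted p = 0.315). That fit again rests on array A of Stat3Δhc Mdr2-/- against its arrays B and C. Array A of Stat3Δhc Mdr2-/-, which shares the Xist pattern of the floxed arrays, had a Jun signal of 8.47, below their 8.89 to 9.17 and above the 8.06 and 7.91 of arrays B and C. The part of the pattern in the difference was not tested beyond this.

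Myc had a change of -0.37 in that comparison (95% interval -0.77 to 0.04, limma adjusted p = 0.216), and -0.07 without the high array B (limma adjusted p = 0.699). Junb had 0.21 (-0.05 to 0.47, limma adjusted p = 0.269). The remaining 7 had changes between -0.17 and 0.15, and their 95% intervals together spanned -0.51 to 0.46. Non-overlapping values were seen for Junb above and for Jun and Myc below, against 10.9% and 17.7% of all genes. The median over the 10 genes was -0.07, against -0.03 over all genes.

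Without the Mdr2 knockout, 0 of the 10 genes passed in limma, against 2.58% of all genes, 1.51% higher and 1.07% lower. At an unadjusted p under 0.05, 2286 of the 13977 genes tested passed, and of the 10 genes 1, Myc. Its 3 Stat3Δhc arrays, at 5.76 to 5.92, all lay below the 3 floxed ones, at 6.22 to 6.46, a change of -0.47 (SE 0.19, unadjusted p = 0.0262, limma adjusted p = 0.223). Non-overlapping lower values, seen for Myc alone of the 10, were found in 10.8% of all genes. Myc passed in 4 of 24 alternative fits, among them the fit without array B of Stat3Fl/Fl Mdr2-/-, the array with the high Myc signal (SE 0.09, limma adjusted p = 0.0182). Jun did not differ detectably, with a change of -0.02 and a 95% interval of -0.36 to 0.31. Egr1 had -0.35 (-0.74 to 0.04, limma adjusted p = 0.37).

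The difference between both Stat3 effects, which is also the difference between both Mdr2 effects, passed for 0 of the 10 genes in limma and for 0.0715% of all genes. At an unadjusted p under 0.05 there was 1, Jun, against 2360 of the 13977 genes tested. Jun had a difference of -0.83 (SE 0.22, unadjusted p = 0.00226, limma adjusted p = 0.207). That the rise of Jun with Mdr2 loss is smaller in Stat3Δhc liver was therefore not shown by this test. In order of level, Jun did not differ between Stat3Δhc (7.22 ± 0.27, SD, n = 3) and Stat3Fl/Fl (7.25 ± 0.09) beyond their spread, then came Stat3Δhc Mdr2-/- (8.15 ± 0.29) and Stat3Fl/Fl Mdr2-/- (9.0 ± 0.15), each apart from its neighbour. For Myc the order was Stat3Δhc (5.84 ± 0.08), Stat3Fl/Fl (6.31 ± 0.13), Stat3Δhc Mdr2-/- (6.9 ± 0.04) and Stat3Fl/Fl Mdr2-/- (7.26 ± 0.52), of which the neighbours with equal Mdr2 state did not pass the test.

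Among themselves the 10 genes varied with little in common once each genotype's mean was subtracted. Over 12 arrays the 45 pairs had correlations between -0.54 and 0.72, with a median of 0.1, a description of arrays that share a processing and 4 group means. The highest pair was Junb with Jund. Jund, Ier2 and Junb all lie on chromosome 8, with 17 protein-coding genes between Ier2 and Junb in RefSeq and 145 between Jund and Ier2. The genes most like 4 of the members by the same measure were Mob3a, Trpv4 and Ntn4 for Fos (0.963, 0.951 and 0.946), Itih3, Sertad1 and Rogdi for Egr1 (0.921, 0.912 and 0.896), Atg9b, Abtb1 and Igflr1 for Junb (0.947, 0.921 and 0.92), and Cenpm, Usp17ld and Fmo2 for Myc (0.94, 0.929 and 0.925). These are the highest of all other genes tested and carry no test. Without subtracting the genotype means the correlations were lower. In the same order they were 0.92, 0.85 and 0.58 for Fos and 0.53, 0.89 and -0.17 for Egr1. For Junb they were 0.79, 0.43 and 0.13, and for Myc 0.82, 0.5 and 0.02.

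A list of 40 other immediate early genes was followed beside the 10, of which 37 were tested. It too was chosen with earlier results of these data known, so its counts only describe these arrays. With Mdr2 loss in floxed liver 16 of the 37 were higher and 0 lower, with a median log2 change of 0.42, against 7.12% higher and 5.65% lower over all genes. Plk3, a stress kinase, rose by 1.43 (SE 0.14, limma adjusted p = 5e-05), Klf6, a zinc finger transcription factor, by 1.19 (SE 0.11, adjusted p = 3.19e-05), and Rhob, a small GTPase, by 1.01 (SE 0.12, adjusted p = 0.000224). Atf3, a stress-induced partner of Jun, was 6.22, 6.26 and 6.07 in Stat3Fl/Fl liver and 7.16, 7.06 and 7.79 in Stat3Fl/Fl Mdr2-/- liver, a rise of 1.15 (SE 0.18, limma adjusted p = 0.00125). In Stat3Δhc liver 19 were higher and 1 lower, with a median of 0.41, against 6.9% and 10.5% over all genes. Atf3 went from 5.83, 6.24 and 6.15 to 7.47, 7.18 and 7.04, again a rise of 1.15 (SE 0.18, limma adjusted p = 0.00105). Gadd45b, a stress response gene, rose by 1.17 (SE 0.19, adjusted p = 0.00166), Tnfaip3, an inhibitor of NF-kappaB signalling, by 1.12 (SE 0.22, adjusted p = 0.00459), and Maff, a small Maf factor, by 0.84 (SE 0.1, adjusted p = 0.000129). Maff was 4.98 to 5.34 in the arrays with Mdr2, below the 40th percentiles of 5.46 to 5.63. It entered the test only through the knockout arrays, at 5.86 to 6.11. Its calls, counted here in both backgrounds, carry that limit. The 1 lower gene, Plk2, was looked up after its value was seen and had a change of -0.49 (SE 0.13, limma adjusted p = 0.0265). Of the higher calls, 14 were shared, 87.5% of those in floxed and 73.7% of those in Stat3Δhc liver.

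**Figure D4:**
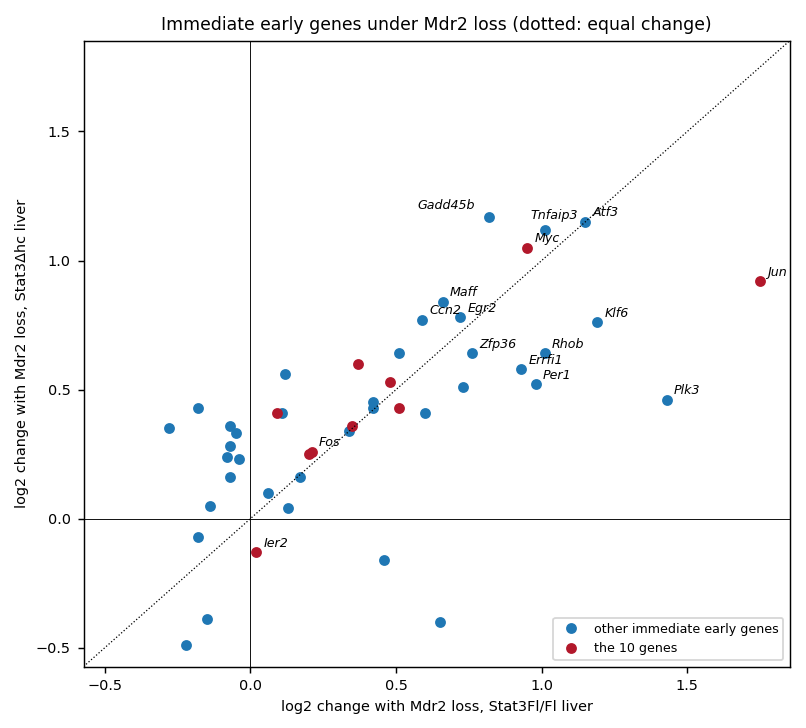
Log2 change with Mdr2 loss in Stat3Fl/Fl liver (horizontal axis) against that in Stat3Δhc liver (vertical axis) for the 10 genes (red) and 37 other immediate early genes (blue), 1 point per gene, with a dotted line of equal change. Jun (1.75 and 0.92) and Plk3 (1.43 and 0.46) lie far to the right of the line and Myc (0.95 and 1.05) and Atf3 (1.15 and 1.15) near it.

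With Stat3 deletion on the Mdr2 knockout 1 of the 37 other immediate early genes passed, Rhob, which fell by 0.46 (SE 0.12, limma adjusted p = 0.0451), and without it 1 of 37, Dusp1, which rose by 0.77 (SE 0.15, limma adjusted p = 0.0184). Over all genes 5.77% and 2.58% were called in these comparisons, so neither count sets the list apart. Dusp1 encodes a phosphatase that switches off the kinases upstream of AP-1. It was 7.97, 7.71 and 7.75 in Stat3Fl/Fl liver and 8.31, 8.73 and 8.72 in Stat3Δhc liver. The difference between both Stat3 effects on Dusp1, -1.04, did not pass (SE 0.21, limma adjusted p = 0.0907).

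The counts of the lists that follow are read against the shares over all genes, which were 7.12% higher and 5.65% lower with Mdr2 loss in floxed liver, 6.9% and 10.5% in Stat3Δhc liver, 1.87% and 3.9% with Stat3 deletion on the knockout, and 1.51% and 1.07% without it. At an unadjusted p under 0.05, in either direction, 3627, 4852, 3911 and 2286 of the 13977 genes passed in the same order. The lists were chosen with earlier results of these data known, so their counts only describe these arrays. Of the partners that form AP-1 with the members, 12 were tested, and 4 were higher with Mdr2 loss in each background, with medians of 0.12 and 0.29. Atf3 and Maff, also on the immediate early list, were called in both, Maff with the limit of the filter given above. Atf7 and Atf2, which pair with Jun, rose by 0.31 and 0.28 in floxed liver (SE 0.08 each, limma adjusted p = 0.0222 and 0.0395). Mafk and Batf2 rose by 0.48 and 0.3 in Stat3Δhc liver (SE 0.13 and 0.1, limma adjusted p = 0.0267 and 0.0469). Stat3 deletion passed for 0 of the 12 in limma, both on the knockout and without it, while at an unadjusted p under 0.05 there were 2 and 1. The largest changes were 0.39 for Fosl1 and 0.28 for Mafk on the knockout (limma adjusted p = 0.183 and 0.182), and -0.3 for Batf and -0.23 for Fosl1 without it (limma adjusted p = 0.211 and 0.608).

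The kinases and promoter factors upstream of the members gave 4 higher and 0 lower of 20 tested in floxed liver and 1 higher and 1 lower in Stat3Δhc liver, with medians of 0.15 and -0.03. Mrtfb, a coactivator of serum response factor, rose by 0.54 and 0.51 (SE 0.12 each, limma adjusted p = 0.0119 and 0.0146). Braf, a kinase at the head of the ERK cascade, and Mapkapk2, a kinase downstream of p38, rose in floxed liver by 0.48 and 0.46 (SE 0.12 and 0.11, limma adjusted p = 0.017 and 0.0124). Map2k6, which activates p38, differed with Stat3 rather than with Mdr2. It was 7.75, 7.4 and 7.34 in Stat3Fl/Fl liver, 8.27, 8.24 and 8.16 in Stat3Δhc liver, 7.59, 7.41 and 7.38 in Stat3Fl/Fl Mdr2-/- liver and 8.49, 8.6 and 8.3 in Stat3Δhc Mdr2-/- liver. Each Stat3Δhc array lay above each floxed array. Map2k6 rose by 0.72 without the Mdr2 knockout (SE 0.12, limma adjusted p = 0.00686) and by 1.0 with it (SE 0.12, limma adjusted p = 0.000946), the 1 call of 20 in each of these comparisons. On the knockout the other 19 of the 20 had negative changes, and the list median was -0.17, against -0.03 over all genes. Of the 20, 10 were lower at an unadjusted p under 0.05 and 0 in limma. Over all genes 3911 of 13977 passed at that unadjusted threshold, in either direction. In this comparison the share of higher calls over all genes moved from 32.4% to 50.4% with cyclic loess scaling. The changes of this list under that scaling were not examined.

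Feedback inhibitors of ERK signalling, 13 tested, gave 2 higher and 0 lower in floxed liver and 2 higher and 2 lower in Stat3Δhc liver. Errfi1, an inhibitor of the EGF receptor, rose in both, by 0.93 and 0.58 (SE 0.18 each, limma adjusted p = 0.00467 and 0.0414). Dusp1 rose by 0.65 in floxed liver (SE 0.15, limma adjusted p = 0.013), and Dusp5, an ERK phosphatase, by 0.41 in Stat3Δhc liver (SE 0.12, limma adjusted p = 0.0405). In Stat3Δhc liver Spry4, a Sprouty inhibitor, was 7.82, 7.69 and 7.72 with Mdr2 and 6.86, 6.47 and 6.93 without. It fell by 0.99 (SE 0.16, limma adjusted p = 0.00146), and Dusp6, a phosphatase of ERK, fell by 0.98 (SE 0.13, limma adjusted p = 0.000426). Dusp6 and Dusp1 were the 2 of 13 that rose with Stat3 deletion without the knockout, Dusp6 by 0.58 (SE 0.13, limma adjusted p = 0.0376). On the knockout 0 of the 13 passed in limma, 5 at an unadjusted p under 0.05, all lower, with -0.41 for Dusp6 and -0.37 for Spred1 (limma adjusted p = 0.0757 and 0.0741).

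The partners and antagonists of Myc, 14 tested, gave 2 higher and 0 lower with Mdr2 loss in floxed liver and 0 higher and 1 lower in Stat3Δhc liver. With 12.8% and 17.4% of all genes called, these counts are not a result about the list. Max, the obligate partner of Myc, was 7.42, 7.63 and 7.64 in Stat3Fl/Fl liver, 8.04, 8.04 and 7.89 in Stat3Fl/Fl Mdr2-/- liver and 7.77, 7.48 and 7.25 in Stat3Δhc Mdr2-/- liver. It rose by 0.43 with Mdr2 loss in floxed liver (SE 0.12, limma adjusted p = 0.0399) and fell by 0.49 with Stat3 deletion on the knockout (SE 0.12, limma adjusted p = 0.0401). Mga, a Max-binding repressor, fell by 0.51 in the latter comparison (SE 0.14, limma adjusted p = 0.0474), where these were the 2 calls of 14. Mlxip, a Mlx partner that responds to glucose, rose by 0.39 in floxed liver (SE 0.07, limma adjusted p = 0.0033), and Mlx fell by 0.54 in Stat3Δhc liver (SE 0.13, limma adjusted p = 0.0124). Without the knockout Stat3 deletion passed for 0 of the 14 in limma, 2 at an unadjusted p under 0.05, with -0.37 for Mxd3, a Myc antagonist, and 0.33 for Mlx (limma adjusted p = 0.082 and 0.212).

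Of the known targets of Myc in growth and ribosome assembly, 32 were tested. With Mdr2 loss 0 were higher in limma in either background, against 2 and 1 higher at an unadjusted p under 0.05, and 1 was lower in floxed and 4 in Stat3Δhc liver. Over all genes 7.12% and 6.9% were higher and 5.65% and 10.5% lower, so counts this low do not set the list apart. The medians were 0.02 and -0.17. Tert, the catalytic subunit of telomerase, fell in both, by 0.53 and 0.57 (SE 0.1 each, limma adjusted p = 0.00408 and 0.00217). Odc1, the first enzyme of polyamine synthesis, fell by 0.49 in Stat3Δhc liver (SE 0.16, limma adjusted p = 0.0479), Shmt2 of serine metabolism by 0.42 (SE 0.12, adjusted p = 0.027) and Polr1b of RNA polymerase I by 0.33 (SE 0.1, adjusted p = 0.0368). With Stat3 deletion on the knockout 3 were lower and 0 higher, with a median of -0.2. Of the 32, 25 had negative changes, and 14 were lower and 1 higher at an unadjusted p under 0.05. Over all genes 3911 of 13977 passed at that threshold, in either direction. The changes of this list under cyclic loess scaling were not examined either. Odc1 fell by 0.59 (SE 0.16, limma adjusted p = 0.0467), Ldha of lactate metabolism by 0.36 (SE 0.09, adjusted p = 0.03) and Cdk4 of the cell cycle by 0.34 (SE 0.09, adjusted p = 0.0486). Without the knockout 0 of the 32 passed in limma, 4 at an unadjusted p under 0.05, and the largest changes were 0.45 for Shmt2 and 0.32 for Tert (limma adjusted p = 0.0603 and 0.105).

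Known targets of AP-1, 9 tested, gave 4 higher in both backgrounds with Mdr2 loss, and the 4 were the same: Timp1, Cd44, Mmp13 and Ccnd1. Timp1, an inhibitor of matrix metalloproteinases, was 5.42, 5.57 and 5.59 in Stat3Fl/Fl liver and 6.56, 7.28 and 7.94 in Stat3Fl/Fl Mdr2-/- liver. It was 5.36, 5.67 and 5.24 in Stat3Δhc liver and 7.66, 7.05 and 6.93 in Stat3Δhc Mdr2-/- liver. The groups were far apart in both backgrounds, with rises of 1.74 (SE 0.27, 3.33-fold, limma adjusted p = 0.0015) and 1.79 (SE 0.27, 3.45-fold, limma adjusted p = 0.00107). Ccnd1, cyclin D1 of the cell cycle, rose by 0.38 and 0.66 (SE 0.11 each, limma adjusted p = 0.0443 and 0.0021). Cd44, a hyaluronan receptor, rose by 0.59 and 0.61 (SE 0.17 each, limma adjusted p = 0.038 and 0.0298), and Mmp13, a collagenase, by 0.44 and 0.39 (SE 0.1 each, limma adjusted p = 0.0153 and 0.0235). The 2 lower in floxed liver, Plau and Vegfa, were looked up after their values were seen and had changes of -0.33 (SE 0.09, limma adjusted p = 0.0315) and -0.36 (SE 0.11, limma adjusted p = 0.0387). Ccnd1 was also the 1 of 9 that passed with Stat3 deletion without the knockout, where it fell by 0.5 (SE 0.11, limma adjusted p = 0.0376). On the knockout 0 of the 9 passed in limma, 1 at an unadjusted p under 0.05, Mmp9, a gelatinase, at 0.34 (limma adjusted p = 0.147).

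**Figure D5:**
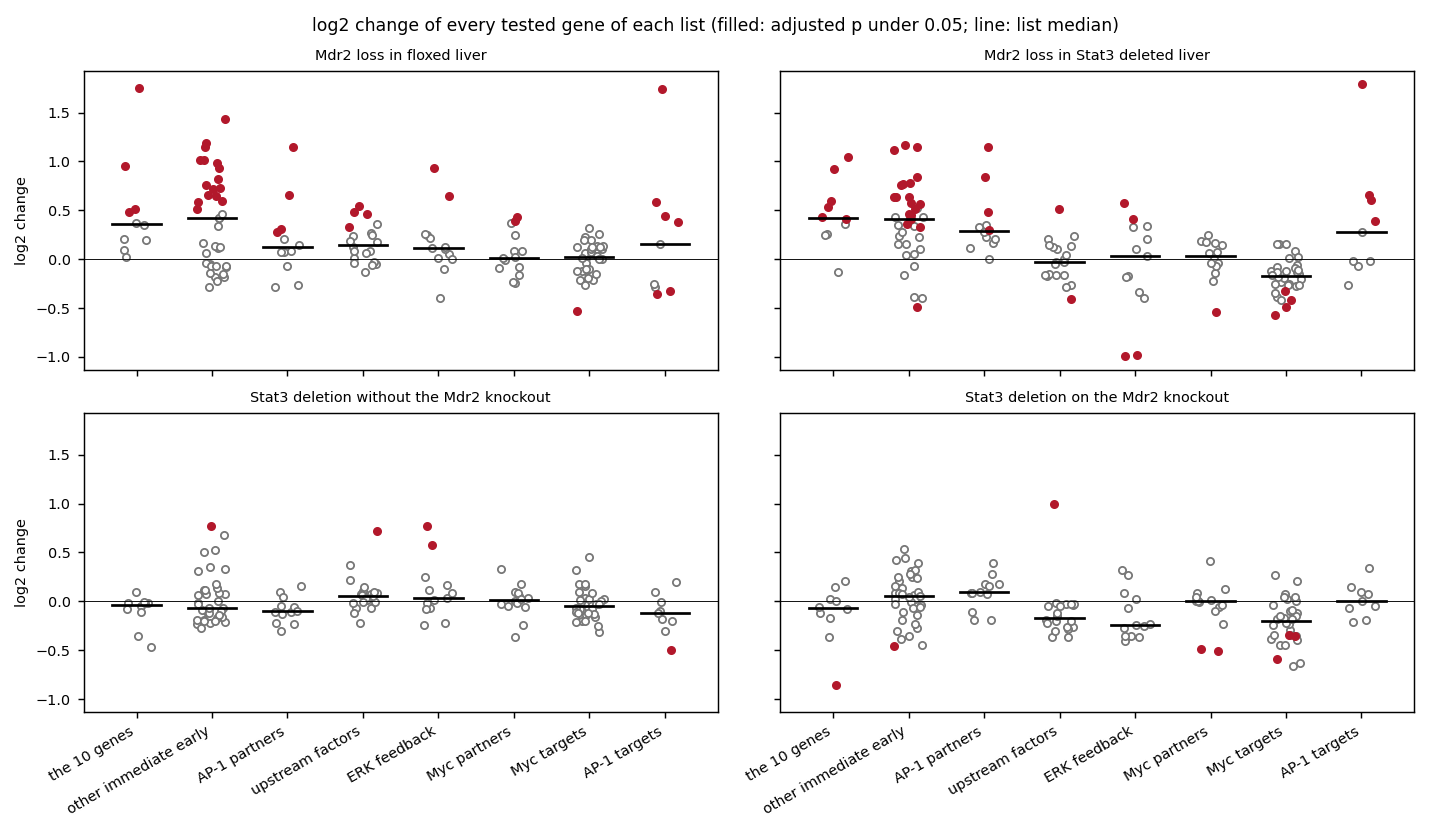
Log2 change (vertical axis) of every tested gene of the 10 and of 7 related lists (horizontal axis) in 4 comparisons, 1 point per gene, filled where the adjusted p is under 0.05, with a line at the list median. Under Mdr2 loss the filled points of the 10 and of the other immediate early genes lie above 0 except Plk2 at -0.49, with medians of 0.36 to 0.42, while the Myc target medians are 0.02 and -0.17.

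Markers of other liver cell types moved unevenly beside these genes. With Mdr2 loss in floxed liver, 0 of 8 stellate cell genes were higher and 2 lower, 1 of 8 endothelial genes was higher, and 1 of 7 macrophage genes was lower. In Stat3Δhc liver 3 stellate cell genes were higher and 4 lower, 3 endothelial genes were lower, and 1 macrophage gene was higher. Erythroid genes were lower for 2 of 4 in floxed and 3 of 4 in Stat3Δhc liver, with medians of -0.56 and -0.51, and hepatocyte genes for 2 and 3 of 10. Bile duct genes were lower for 2 of 6, and lymphocyte genes higher for 2 of 6, in Stat3Δhc liver, while in floxed liver 0 of 6 of each list passed in limma, against 2 and 1 at an unadjusted p under 0.05. Of 6 neutrophil genes tested, 0 passed in limma in either background, also at an unadjusted p under 0.05. The stellate cell mean was 9.41 to 9.69 in Stat3Fl/Fl liver, 9.3 to 9.44 in Stat3Δhc liver, 9.3 to 9.33 in Stat3Fl/Fl Mdr2-/- liver and 9.01 to 9.12 in Stat3Δhc Mdr2-/- liver. This mean joins genes that moved in opposite directions. In floxed liver Des went from 7.61 to 8.24 with Mdr2 to 6.16 to 6.4 without, falling as the muscle genes did, and Acta2 fell too. Pdgfrb, Dcn and Col3a1 rose without overlap, and Lrat, Reln and Col1a1 overlapped. The part of muscle RNA in this mean was not tested. On the knockout, where Jun fell with Stat3 deletion, 2 of 8 stellate cell and 2 of 7 macrophage genes were lower as well. The macrophage mean was 8.56 to 8.85 there, against 8.91 to 9.05 in the floxed knockout. The endothelial mean was 8.47 to 8.74, against 8.81 to 8.95, with 0 of 8 genes passing in limma and 6 lower at an unadjusted p under 0.05. Over all genes 3911 of 13977 passed at that unadjusted threshold in this comparison, in either direction. The part of cell composition in the change of Jun was not tested.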

How the data were processed

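Total RNA of whole mouse liver was hybridised to 12 Affymetrix arrays. The authors deposited log2 expression values. RMA is named, without a version, in the submitters' processing notes. The values ran from 1.37 to 14.54, and probe-level files were not used here. Samples were grouped by title.

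Of 35556 transcript clusters, 21789 named 1 gene, 1621 several and 12146 none in the platform annotation. Genes entered the test when at least 3 arrays exceeded their own 40th percentile (5.46 to 5.63). Limma 3.58.1 in R 4.3.3 was fitted with lmFit and eBayes across all 13977 genes and all 12 arrays (8 residual degrees of freedom, prior 4.82), with Benjamini-Hochberg adjustment at 0.05. The median standard error of a log2 change was 0.11, and the number of arrays limits the precision. The fit was tested on simulated data. Promoter windows and chromosomes came from RefSeq tables on GRCm38.p6.

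The 10 genes, the lists and the marker genes were chosen with earlier results of these data known. Named were the 10, Stat3 and Abcb4, up to 4 passing genes per list and comparison by size of change (or the 2 largest where none passed), and the 3 genes most correlated with Fos, Egr1, Junb and Myc. Lists overlap in Atf3, Maff, Fosl1, Dusp1, Dusp5, Errfi1 and Srf, and 7 of 153 list genes had no one-gene cluster. Alternatives were other filters, clusters, scalings, array weights, only the compared groups, the letter as a block, groups by source name, the Xist or Y-linked pattern, and leaving out each array. Letters did not pair the arrays. Same-letter deviations correlated at -0.41 to 0.37, above 0.1 in 3 of 18 pairs.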

Additional observations from a re-analysis of the deposited data

Results flagged for a closer look

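Both results here stand out because every Stat3Δhc array lay above every floxed array without the Mdr2 knockout and below every floxed array with it. Dusp6, the ERK phosphatase, was 8.62, 8.91 and 8.74 in Stat3Fl/Fl liver and 9.24, 9.28 and 9.49 in Stat3Δhc liver, but 8.81, 8.76 and 8.72 in Stat3Fl/Fl Mdr2-/- liver and 8.62, 8.04 and 8.39 in Stat3Δhc Mdr2-/- liver. The difference between both Stat3 effects was -0.99 (SE 0.19, unadjusted p = 0.000143) and did not pass over all genes (limma adjusted p = 0.0715). Plk3 was 6.65, 6.19 and 6.41, then 6.66, 7 and 7.16, then 7.66, 8.05 and 7.85, and 7.46, 7.4 and 7.34 in the same order of genotypes. Its difference was -0.97 (SE 0.2, unadjusted p = 0.000377, limma adjusted p = 0.0971), which did not pass either.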

How the results depend on the processing

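Of 1145 values of the 10 genes under other settings, 1011 kept their direction and side of the threshold, 40 lost a call, 9 gained one, 2 reversed and 83 were changes that never passed and turned sign. Jun and Jund kept the call in all 24 alternatives for Mdr2 loss in Stat3Δhc liver, as did Myc, and Jun in all 23 in floxed liver. Grouping by source name, which exchanges the Mdr2-/- genotypes, turned the change of Jun with Stat3 deletion on the knockout to 0.86 and its difference between the Stat3 effects to 0.88 (limma adjusted p = 0.0228). The genes called for Stat3 deletion on the knockout numbered 806, and 2298 with array weights, 230 with only the compared groups, 473 with the letter as a replicate block and 37 with the Xist or Y-linked pattern as a covariate, which also left 0 of the 10 genes. Without the knockout 361 became 2955 with weights, 237 with the replicate block and 234 with only the Y-linked arrays. The 10 genes then gave 2 calls with weights, 1 with only the compared groups and 1 with the Y-linked arrays. For the difference, 10 genes became 6 without a filter, 23 with trend and robust eBayes, 567 with weights, 3 with the replicate block, 1421 by source name, where 1 of the 10 passed, and 6 with the pattern. For Mdr2 loss in floxed liver, 1785 became 102 with the pattern, with 1 of the 10 genes. In Stat3Δhc liver 2431 became 5830 with weights and 1541 with only the compared groups, and 6 of the 10 genes became 3 with the pattern and 3 with the Y-linked arrays. Leaving out 1 array gave 302 to 1475 genes for Stat3 deletion on the knockout, 69 to 753 without it, 0 to 64 for the difference, 1105 to 2129 for Mdr2 loss in floxed and 1156 to 2613 in Stat3Δhc liver, with 1, 0 to 1, 0, 3 to 4 and 3 to 6 of the 10 genes. The share of higher calls moved from 32.4% to 50.4% with cyclic loess for Stat3 deletion on the knockout and from 20% to 36.4% for the difference, and with median centring from 58.4% to 72% without the knockout and from 39.7% to 29.4% for Mdr2 loss in Stat3Δhc liver. The causes were not tested. The replicate block ended the floxed call of Fosb (limma adjusted p = 0.0694) and the Stat3Δhc call of Junb (0.0591) and no other call of the 10. An analysis of only the Y-linked arrays could not be made for comparisons with Stat3Fl/Fl Mdr2-/-, whose arrays all have the Xist pattern.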
